A study of Homo sapiens with 12 samples.

Results

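Hyaluronan is a long, unsulfated sugar polymer of the extracellular matrix, and 9 genes that make it, cut it, bind it or serve as its receptor were followed through the mRNA-seq of glioblastoma cells that had survived temozolomide (TMZ). They were the synthase genes HAS1, HAS2 and HAS3, the hyaluronidase genes HYAL1, HYAL2 and HYAL3, the hyaluronan-degrading factor CEMIP, the hyaluronan-binding protein TNFAIP6 (also called TSG-6) and the receptor CD44. The set was chosen by the TPM of its genes in these same libraries, control against aggregation, and all 9 were found by Ensembl identifier among the 58174 identifiers of each table. Their differences between control and aggregation cells are therefore given as a description and carry no test. Tests are given for 47 other genes of the pathway, which were also listed with earlier results of these data known, so their p-values are not independent evidence for the pathway.

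The study compared, within each of 2 cell lines, control cells with the cell aggregations obtained by long exposure to TMZ, an alkylating drug given to patients with glioblastoma. U87 (U-87 MG) and U118 (U-118 MG) are established human glioblastoma cell lines, and each line had 3 control and 3 aggregation libraries, 12 in all. In the labels, control appears as sensitive and aggregation as resistant. The aggregation cells came from the survivors of continuous exposure to TMZ at 50 µM, which grew out as clusters. According to the methods, all cells were first sorted as CD133- CD15- and grown with serum and BMP2, so both groups share that selection, and each aggregation culture descends from a small surviving part of a line. No source used here says whether the 3 libraries of a group came from separate cultures, so the p-values given below measure only the spread between these libraries.

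In vertebrates hyaluronan is spun out through the cell membrane by the synthases HAS1, HAS2 and HAS3, which join glucuronic acid and N-acetylglucosamine from their UDP-sugars. HYAL2 at the cell surface and HYAL1 in lysosomes cut the chain, CEMIP drives a separate route of breakdown, and lysosomal exoglycosidases finish the fragments. CD44 is the main cell surface receptor of hyaluronan, and in brain, where fibrous collagen is scarce, hyaluronan with its bound proteoglycans forms much of the matrix that glioma cells meet.

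Values were TPM, a share of a library's transcripts corrected for their length, from which neither read counts nor depth can be recovered. Control and aggregation libraries were compared on log2(TPM + 1), a scale that understates the change of genes at low TPM. Testing in a line required 1 TPM or more in 3 or more of its 6 libraries, and a call required both a Benjamini-Hochberg adjusted p below 0.05 and a log2 difference of 1 or more in size. Aggregation minus control had a median log2 difference over all tested genes of -0.24 for U87 and -0.52 for U118, against -4.709e-05 and -0.06 after median-ratio scaling of the libraries, so differences are also given relative to the first pair of medians. The mitochondrial genome supplied 12.9% to 16.9% of all TPM in control and 22.2% to 23.7% in aggregation libraries of U87. For U118 its share ranged from 7.42% to 19.8% among controls and was 13.2%, 29.9% and 26.1% in aggregation replicates 1, 2 and 3. These 3 libraries had 15193, 13270 and 13545 genes at 1 TPM or more, and the U118 controls 15129 to 15290. Aggregation replicate 1 was also the highest of its group for every member but HAS3, so the U118 aggregation means and SDs lean on a library unlike the others.

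The U118 aggregation libraries stood apart from their own controls. Across 16382 genes their Spearman's rho was 0.808 to 0.839 with the U118 control libraries, 0.895 to 0.909 with the U87 control libraries and 0.907 to 0.914 with the U87 aggregation libraries, while libraries of the same group had 0.960 to 0.988. Of 110 genes at 10 TPM or more in every U118 control and under 0.1 TPM in every U87 control library, 63 were under 0.1 TPM in all 3 U118 aggregation libraries and 3 were still at 10 TPM or more. Of 44 genes with the reverse pattern in the controls, 23 were at 10 TPM or more and 3 under 0.1 TPM in all 3 U118 aggregation libraries. A change of the U118 cells and a different origin of these cells cannot be told apart here, and every U118 difference below rests on these libraries, whereas the U87 comparison uses none of them. Of the glial and neural markers, VIM was at 4425 to 7149 TPM and NES at 5.76 to 24.1 TPM in all libraries, whereas GFAP, S100B and SOX2 stayed under 1 TPM throughout. OLIG2 was at 1.45 to 4.45 TPM in U87 control, 2.83 to 3.85 in U87 aggregation, 0 to 0.0524 in U118 control and 0.570 to 1.05 TPM in U118 aggregation libraries. The summed fibroblast and mural markers COL1A1, DCN, PDGFRB and ACTA2 lay at 286 to 301 TPM in U87 control, 434 to 452 in U87 aggregation, 446 to 468 in U118 control and 241 to 385 TPM in U118 aggregation libraries. Its members went different ways in U118, where DCN was at 32.9 to 39.6 TPM in control and 0.224 to 1.06 in aggregation, COL1A1 at 380 to 403 and 105 to 237, PDGFRB at 21.5 to 25.8 and 10.7 to 16.1, and ACTA2 at 4.19 to 6.11 and 115 to 131 TPM. The part of such cells or programmes in the results was not tested.

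**Figure D1:**
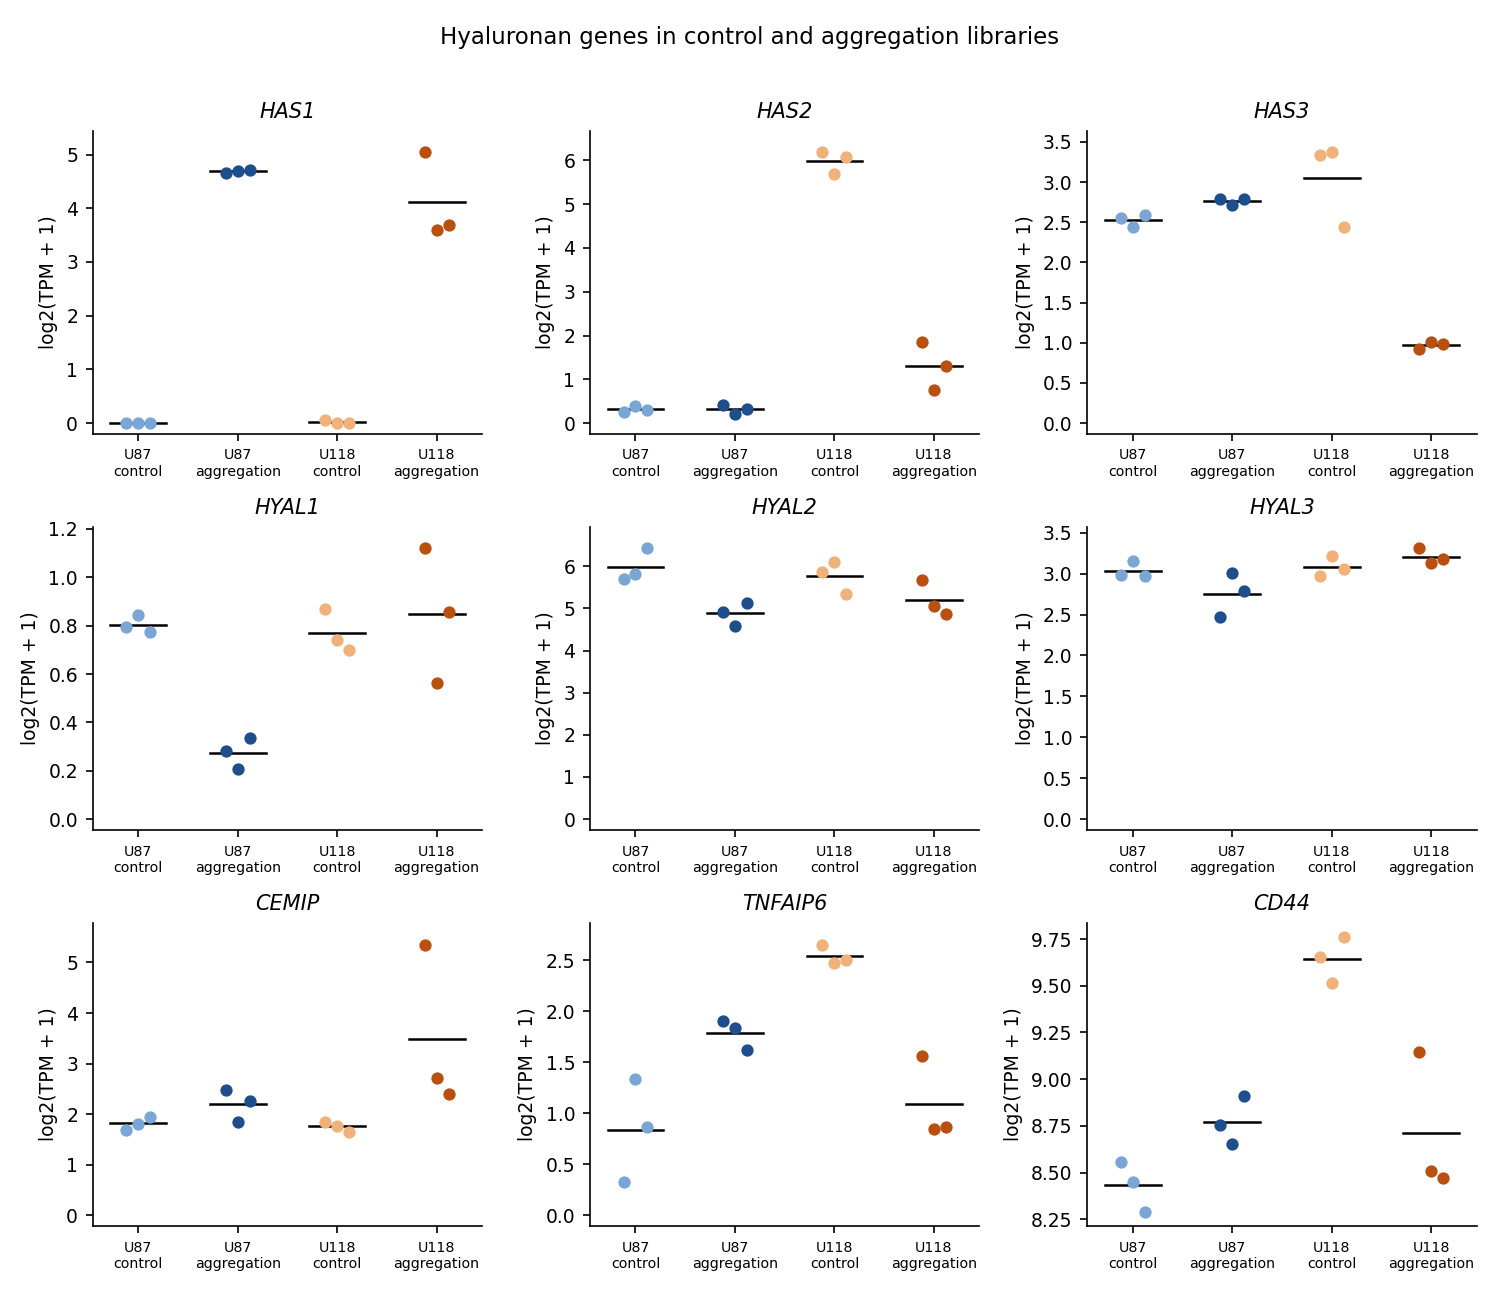
Expression of the 9 hyaluronan genes in each of the 12 libraries, as log2(TPM + 1) on the vertical axis (the CD44 axis does not start at 0), with 1 point per library, a line at the mean of the 3 libraries of a group, and the control and aggregation groups of U87 and U118 side by side. HAS1 lay at or near 0 in all 6 control libraries and at 11.1 TPM or more in all 6 aggregation libraries, whereas HAS2 was above 50 TPM in the U118 control libraries only.

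The leading synthase differed between control and aggregation cells in both lines, with HAS1 holding most of the synthase transcripts in every aggregation library. The promoters of HAS1 and HAS3 are shown first as a description of sequence, and their part in the differences was not tested. They are the bases upstream of the start in the RefSeq table (GRCh38.p14), read 5′ to 3′ on the strand of the gene and ending at the base before the first exon, with capitals marking any match to the hypoxia response core (ACGTG or GCGTG), the AP-1 site (TGANTCA) or the TATA box (TATAAA), searched on both strands of the 250 bases before each start. The HAS3 stretch precedes a RefSeq start that lies inside the GENCODE gene, downstream of its outermost start, and overlaps no GENCODE exon. The HAS2 promoter was not analysed here.
HAS1, chr19:51723995-51724241, minus strand: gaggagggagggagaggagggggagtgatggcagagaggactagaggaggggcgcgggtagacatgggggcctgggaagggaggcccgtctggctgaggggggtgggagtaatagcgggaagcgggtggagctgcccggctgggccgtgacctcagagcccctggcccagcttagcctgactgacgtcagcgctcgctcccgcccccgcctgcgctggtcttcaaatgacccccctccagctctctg
HAS3, chr16:69107290-69107539, plus strand: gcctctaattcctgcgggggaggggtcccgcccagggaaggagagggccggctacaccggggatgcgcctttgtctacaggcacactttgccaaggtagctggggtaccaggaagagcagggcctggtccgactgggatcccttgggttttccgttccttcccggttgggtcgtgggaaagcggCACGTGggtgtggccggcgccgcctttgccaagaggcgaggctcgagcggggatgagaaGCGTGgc

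The HAS1 window held none of the 3 motifs. The HAS3 window held 3 matches to the hypoxia response core, of which 2 overlap on opposite strands as CACGTG between 66 and 61 bases before the start and 1 lies 7 to 3 bases before it. Matches to the core were also found upstream of CEMIP, HYAL1, HYAL2, HYAL3 and CD44. The core is common and was found in 43.2% of the 35116 RefSeq promoters of this length, against 6.57% for the AP-1 site and 10.7% for the TATA box. These are matches of letters only, and no binding was measured here.

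HAS1 (ENSG00000105509, chr19:51713112-51723994, minus strand, GENCODE release 29 on GRCh38), the synthase usually found at the lowest level in cells, was listed at 0 in all 3 U87 control libraries. It stood at 24.2, 25.1 and 25.1 TPM in the 3 U87 aggregation libraries (24.8 ± 0.524, SD, n = 3), and no fold is given against a group listed at 0. In U118 the control libraries held 0.0411, 0 and 0 TPM and the aggregation libraries 31.9, 11.1 and 11.8 TPM. In both lines every aggregation library was thus far above every control library, and U118 aggregation replicate 1 was the highest of all. The U118 log2 difference was 4.09 ± 0.37 (SE), or 4.61 relative to all genes. It was 7.18 with a pseudocount of 0.1 TPM in place of 1, so its size depends on the scale. With controls at or near 0, no alternative run could turn its direction, so nothing is read from the direction being kept. HAS1 passed the filter on low values only through the aggregation libraries.

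HAS2 (ENSG00000170961, chr8:121612116-121641390, minus strand), the synthase of most mesenchymal cells, differed mainly in U118. The U118 control libraries held 71.8, 50.5 and 66.8 TPM and the aggregation libraries 2.59, 0.697 and 1.47 TPM. The groups did not overlap, and the mean was 39.7-fold lower in aggregation cells (63.0 ± 11.1 to 1.59 ± 0.952 TPM, SD, n = 3 each), a log2 difference of -4.68 ± 0.31 (SE) and -4.16 relative to all genes. Its rank was 70 from the largest fall among 15527 genes, from which nothing is read because the set was chosen on these values. In U87 HAS2 was low in both states, at 0.198, 0.318 and 0.225 TPM in control and 0.332, 0.161 and 0.251 TPM in aggregation libraries, with overlapping groups, and it did not pass the filter there. The antisense gene HAS2-AS1 shares exonic sequence with HAS2 on the opposite strand. It stood at 8.44, 8.42 and 11.6 TPM in U118 control and 3.89, 2.13 and 1.33 TPM in U118 aggregation libraries, and since no source used here says whether counting was by strand, reads of the pair may not be told apart.

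HAS3 (ENSG00000103044, chr16:69105564-69118719, plus strand), a synthase known for high activity at low abundance, was the main synthase transcript of U87 control cells. It was at 4.86, 4.44 and 4.99 TPM there and at 5.90, 5.57 and 5.89 TPM in U87 aggregation libraries, which all lay slightly above the controls (log2 difference 0.24 ± 0.13, SE, and 0.48 relative to all genes). The U118 values were 9.08, 9.33 and 4.44 TPM in control and 0.899, 1.01 and 0.974 TPM in aggregation libraries. The U118 groups did not overlap, the mean was 7.93-fold lower in aggregation cells and the log2 difference was -2.08 ± 0.28 (SE). CHTF8, whose exons overlap HAS3 on the opposite strand, was at 43.5 to 82.4 TPM in the 12 libraries, so part of the HAS3 value could come from it if strand was not used.

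The sum of the 3 synthase transcripts differed in opposite directions in the 2 lines. In U87 it was 4.76 to 5.22 TPM in control and 30.4 to 31.2 TPM in aggregation libraries (5.01 ± 0.233 and 30.8 ± 0.416, SD, n = 3). In U118 it was 59.8 to 80.9 TPM in control and 12.9 to 35.4 TPM in aggregation libraries (70.7 ± 10.6 and 20.9 ± 12.6). Neither pair of groups overlapped. The share of HAS1 in this sum, which no library scaling can change, was 0% in the U87 control and 0% to 0.0508% in the U118 control libraries. It was 79.5% to 81.4% in the U87 and 82.8% to 90.1% in the U118 aggregation libraries. HAS3 held 93.3% to 96.1% of the sum in U87 control libraries and HAS2 held 84.4% to 93.8% in U118 control libraries, so the leading synthase transcript was a different one in the control cells of each line and was HAS1 in the aggregation cells of both.

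**Figure D2:**
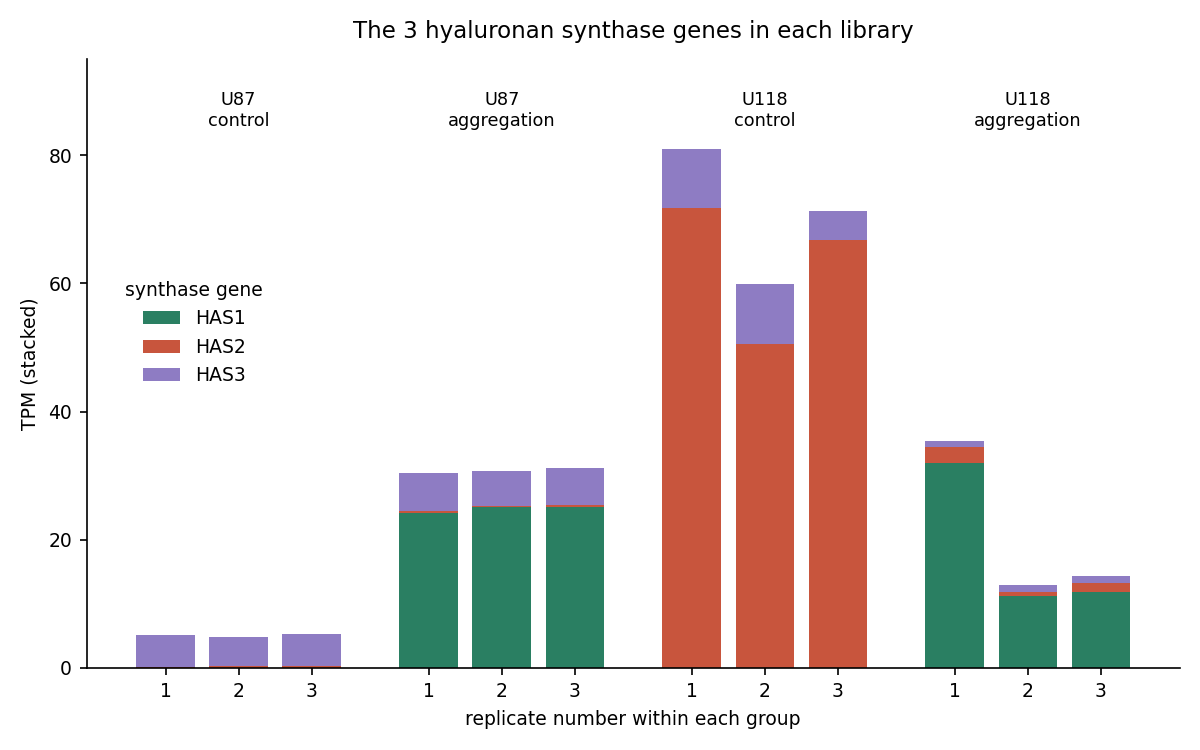
Stacked TPM of the synthase genes HAS1, HAS2 and HAS3 in each library, with the replicate number on the horizontal axis and bars starting at 0. HAS3 fills most of the bar in U87 control, HAS2 in U118 control and HAS1 in all 6 aggregation libraries, and the whole bar is taller in U87 aggregation (30.4 to 31.2 TPM) than in U87 control (4.76 to 5.22 TPM) and shorter in U118 aggregation (12.9 to 35.4 TPM) than in U118 control (59.8 to 80.9 TPM).

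Among the genes of hyaluronan breakdown, HYAL2 was lower in U87 aggregation cells and CEMIP was higher in U118 aggregation cells, the latter by an amount set largely by 1 library. HYAL1 (ENSG00000114378, chr3:50299889-50312381), the lysosomal hyaluronidase, was under 1.2 TPM in all 12 libraries and was tested in neither line. In U87 it was at 0.735, 0.793 and 0.711 TPM in control and 0.217, 0.153 and 0.262 TPM in aggregation libraries, all of them below the controls and 3.55-fold lower on average. In U118 the groups overlapped, with 0.827, 0.671 and 0.624 TPM in control and 1.17, 0.476 and 0.812 TPM in aggregation libraries. At such low TPM, with no counts, how precise these values are cannot be given.

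HYAL2 (ENSG00000068001, chr3:50317790-50322906), the hyaluronidase anchored at the cell surface, was the most abundant of the 3. In U87 it was at 50.8, 55.3 and 84.7 TPM in control and 29.4, 22.9 and 34.1 TPM in aggregation libraries. The groups did not overlap, and the mean was 2.21-fold lower in aggregation cells (63.6 ± 18.4 to 28.8 ± 5.60 TPM, SD, n = 3 each). The log2 difference was -1.10 ± 0.22 (SE), but -0.83 with median-ratio scaling and -0.88 without U87 control replicate 3, which had the highest value, both short of the limit of 1. In U118 HYAL2 was at 56.9, 67.6 and 39.3 TPM in control and 50.0, 32.2 and 28.4 TPM in aggregation libraries, which overlapped, and its log2 difference of -0.56 ± 0.29 (SE) was -0.04 relative to all genes.

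HYAL3 (ENSG00000186792, chr3:50292831-50299468), a member of the family whose own activity is weak or uncertain, was at 6.90, 7.94 and 6.85 TPM in U87 control and 4.53, 7.02 and 5.93 TPM in U87 aggregation libraries, and at 6.86, 8.25 and 7.32 TPM in U118 control and 8.90, 7.74 and 8.07 TPM in U118 aggregation libraries. The groups overlapped in both lines, with log2 differences of -0.28 ± 0.18 (SE) in U87 and 0.13 ± 0.22 in U118, or -0.04 and 0.65 relative to all genes. HYAL2 shares exonic sequence with TUSC2, and HYAL3 with IFRD2 and NAA80, each pair on the same strand, so the division of their reads rests on the counting method, which is not given in the sources used here. TUSC2 was at 69.5 to 72.1 TPM in U87 control and 34.4 to 38.4 TPM in U87 aggregation libraries. In U118 it was at 41.7 to 48.3 and 67.2 to 71.7 TPM. IFRD2 was at 124 to 190 and 57.3 to 71.6 TPM in U87, and at 67.25 to 135.5 and 79.7 to 106 TPM in U118. The NAA80 ranges overlapped in both lines. The part of these genes in the HYAL2 and HYAL3 values was not tested.

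CEMIP (ENSG00000103888, chr15:80779343-80951776, plus strand), which is needed for breakdown of hyaluronan in skin fibroblasts, was set apart by 1 library. The stretch upstream of its first exon is shown because it is the only one of the 4 promoters printed here with a TATA box match. That match begins 30 bases before the RefSeq start, and its first 3 letters end the run.
CEMIP, chr15:80779120-80779342, plus strand: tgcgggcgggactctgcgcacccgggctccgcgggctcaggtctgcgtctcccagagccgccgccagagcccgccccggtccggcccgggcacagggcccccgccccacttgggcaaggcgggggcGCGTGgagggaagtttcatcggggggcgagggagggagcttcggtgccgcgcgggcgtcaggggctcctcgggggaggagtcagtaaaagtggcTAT

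CEMIP was at 2.24, 2.48 and 2.87 TPM in U87 control and 4.60, 2.61 and 3.76 TPM in U87 aggregation libraries, and those groups overlapped. Its U118 values were 2.60, 2.42 and 2.13 TPM in control and 39.9, 5.61 and 4.26 TPM in aggregation libraries. All 3 U118 aggregation libraries were above the controls, but replicate 1 was several times higher than the others, and the mean of 16.6 TPM had an SD of 20.2 (n = 3). The log2 difference of 1.74 ± 0.66 (SE) fell to 0.80 without aggregation replicate 1, the library that also had the lowest mitochondrial share of its group. MESD, whose exons overlap CEMIP on the opposite strand, was at 19.2 to 34.6 TPM in the 12 libraries. If strand was not used, part of the CEMIP value could come from MESD. The capitals GCGTG in the printed stretch are a match to the hypoxia response core, 124 to 120 bases before the start.

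TNFAIP6 (ENSG00000123610, chr2:151357592-151380048, plus strand), a secreted protein induced by inflammatory cytokines that binds hyaluronan and transfers heavy chains of inter-alpha-inhibitor onto it, differed in opposite directions in the 2 lines. Its promoter is shown because it was the only one among the members searched to hold an AP-1 site, in capitals, 129 to 123 bases before the start. This match is a partial palindrome and was found on both strands.
TNFAIP6, chr2:151357342-151357591, plus strand: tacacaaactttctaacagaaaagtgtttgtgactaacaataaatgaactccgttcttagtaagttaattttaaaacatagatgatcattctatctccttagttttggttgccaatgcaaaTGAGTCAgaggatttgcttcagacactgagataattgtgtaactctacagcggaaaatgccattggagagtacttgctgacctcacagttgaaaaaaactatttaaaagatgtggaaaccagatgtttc

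In U87 TNFAIP6 was at 0.250, 1.53 and 0.816 TPM in control and 2.74, 2.58 and 2.08 TPM in aggregation libraries (0.864 ± 0.640 to 2.47 ± 0.343, SD, n = 3). All aggregation libraries were higher, with a log2 difference of 0.95 ± 0.26 (SE) and 1.19 relative to all genes. The U118 values were 5.30, 4.58 and 4.67 TPM in control and 1.96, 0.796 and 0.822 TPM in aggregation libraries. Here all aggregation libraries were lower, 4.07-fold on average, with a log2 difference of -1.45 ± 0.25 (SE) and -0.93 relative to all genes. The opposite directions were not tested against each other for this gene.

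CD44 (ENSG00000026508, chr11:35138870-35232402, plus strand), the receptor through which most hyaluronan signals reach the cytoskeleton, was the most abundant of the 9 genes in every library. In U87 it was at 376, 349 and 311 TPM in control and 431, 401 and 480 TPM in aggregation libraries, all of which lay above the controls by a mean of 1.27-fold (log2 difference 0.34 ± 0.10, SE). In U118 it was at 806, 730 and 868 TPM in control and 566, 363 and 354 TPM in aggregation libraries, all of which lay below the controls, 1.87-fold on average (log2 difference -0.93 ± 0.25, SE, and -0.41 relative to all genes). The mean was 437 ± 39.8 TPM in U87 and 428 ± 120 TPM in U118 aggregation libraries (SD, n = 3), but the 2 tables are separate and levels across lines were not tested. CD44-AS1, an antisense gene with exons over CD44, was at 3.06 to 3.51 TPM in U118 control and 0.148 to 0.253 TPM in U118 aggregation libraries. These gene-level values say nothing of the CD44 splice forms. In bulk libraries such as these, fewer cells of a type and less RNA per cell cannot be told apart.

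**Figure D3:**
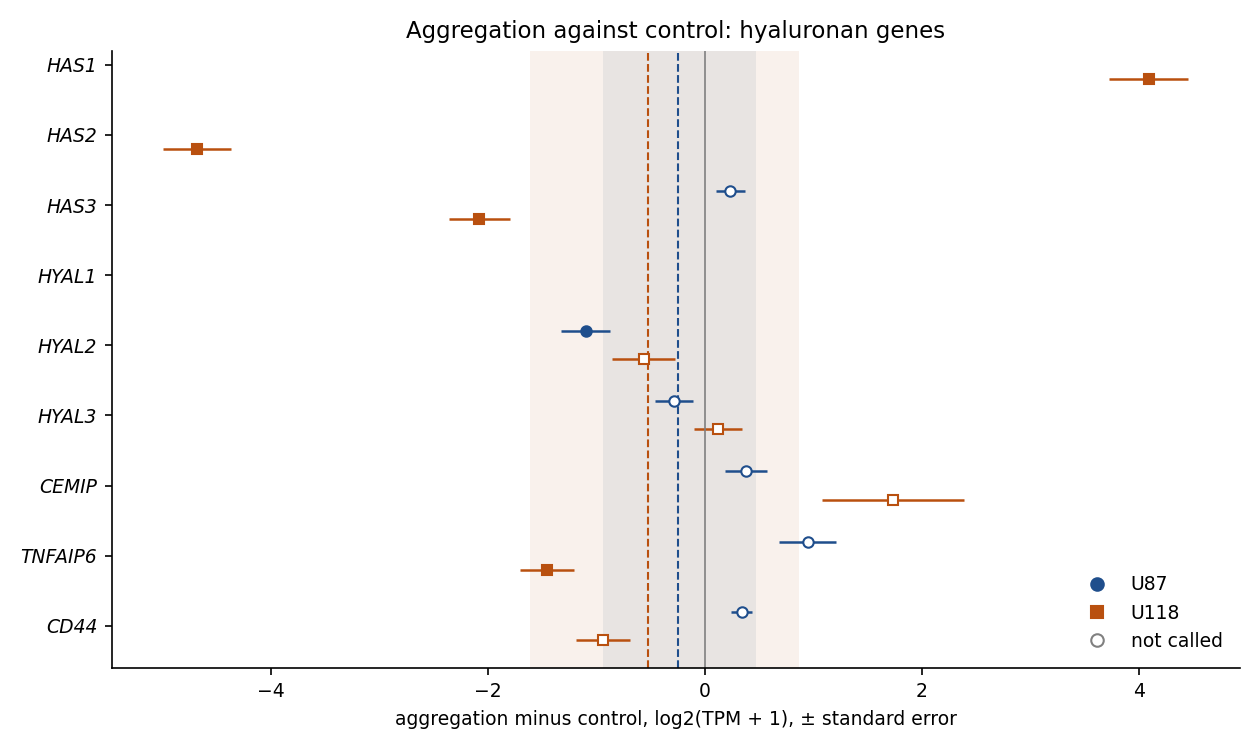
Difference between aggregation and control cells on log2(TPM + 1), with the standard error, for the hyaluronan genes that passed the filter in U87 (circles) and U118 (squares). Filled symbols passed the limits used for all genes, dashed lines are the medians of all genes tested (-0.24 in U87, -0.52 in U118) and shaded bands run from their 10th to their 90th percentile. HAS1 in U87 is left out because its control libraries were listed at 0, and HYAL1 in both lines and HAS2 in U87 because they were not tested. HAS1 and HAS2 in U118 lie farthest from the band, at 4.09 and -4.68.

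By the limits used for all genes, 1 of the 7 members tested in U87 was called higher (HAS1) and 1 lower (HYAL2). Of the 13845 genes tested in that line 10.8% were called, 3.03% higher and 7.79% lower. Of the 8 members tested in U118 1 was called higher (HAS1) and 3 lower (HAS2, HAS3 and TNFAIP6), against 35.3% of 15527 genes called there, 8.64% higher and 26.6% lower. Median-ratio scaling gave 2 higher and 0 lower in U87, with TNFAIP6 gained and HYAL2 lost, and 2 higher and 3 lower in U118, with CEMIP gained. In U87 all 3 aggregation libraries lay above all 3 controls for 4 of the tested members (13.6% of all genes) and below for 1 (39.8%), and in U118 above for 2 (15.7%) and below for 4 (42.9%). Over all genes the groups did not overlap for 53.4% in U87 and 58.6% in U118. Since the genes were chosen with this contrast in view, nothing is read from these counts.

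The order of levels within a group is given by mean TPM, and neighbours are called level where their libraries overlap. In U87 control cells it ran from CD44 through HYAL2, HYAL3, HAS3 and CEMIP to TNFAIP6, HYAL1, HAS2 and HAS1, and every neighbour pair was separated in all 3 libraries but TNFAIP6 and HYAL1. In U87 aggregation cells HAS1 stood next to HYAL2 with overlapping values, and HYAL3 was level with HAS3, CEMIP with TNFAIP6, and HAS2 with HYAL1. In U118 control cells HAS2 was second, level with HYAL2, and HAS3 was level with HYAL3. In U118 aggregation cells HYAL2, HAS1, CEMIP and HYAL3 followed CD44 with overlapping neighbours, and HAS2, TNFAIP6, HAS3 and HYAL1 formed an overlapping group at the bottom.

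For each member past those limits in a line, the genes with the most similar profile over the 12 libraries were found among 16252 genes as those with the smallest mean absolute difference of centred log2(TPM + 1). The libraries fall into the same 4 groups for all genes, so such likeness is a description. For HAS1 they were the non-coding gene ENSG00000269729 (mean absolute difference 0.59), the chemokine gene CCL2 (0.67) and ENSG00000248583 (0.72). CCL2 was at a mean of 2.52 TPM in U87 control and 37.2 in U87 aggregation cells, and at 0.208 and 44.3 TPM in U118. For HAS2 they were the netrin family gene NTN4 (0.25), the Wnt pathway modulator DKK3 (0.26) and the carboxypeptidase gene CPZ (0.27), and DKK3 went from a mean of 95.4 TPM in U118 control to 1.66 TPM in U118 aggregation cells. For TNFAIP6 they included the interferon gamma receptor gene IFNGR1 (0.11) and MARF1 (0.17). HAS3 was most like an unnamed identifier, BCAT2 (0.17) and BAIAP2-DT (0.19), and those most like HYAL2 included ATP6V0E2-AS1 (0.15).

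Among the 47 other genes of the pathway, GFPT2 rose in both lines and PTX3 rose in U87 and fell in U118. In U87 27 of them were tested, of which 3 were called higher, 1 lower and 23 neither, against 3.03% higher and 7.79% lower over all genes tested. In U118 28 were tested, of which 3 were called higher, 12 lower and 13 neither, against 8.64% higher and 26.6% lower over all genes tested, where falls also outnumbered rises. Relative to all genes, the U87 median of these log2 differences was -0.05 and the U118 median -0.32. With median-ratio scaling the U118 calls were 4 higher and 5 lower, so 7 of the U118 falls turn on the shift shared by all genes and are marked below as lost with that scaling. The other 19 were tested in neither line, among them the hyaluronan receptors LYVE1, STAB1 and STAB2 and the brain proteoglycans NCAN and BCAN. BCAN reached at most 1.19 TPM, and HYAL4, HAPLN2 and HAPLN4 were listed at 0 in all 12 libraries.

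The enzymes that supply UDP-sugars were all measured, 9 of 9. In U87 the call was higher for 1 and lower for 0, and in U118 higher for 1 and lower for 5 (all genes tested, 3.03% higher and 7.79% lower in U87, and 8.64% and 26.6% in U118), with a list median relative to all genes of -0.05 and -0.69. GFPT2, an isoform of the rate-limiting enzyme that leads glucose carbon into hexosamine, was at 25.9, 25.5 and 26.5 TPM in U87 control and 71.6, 69.2 and 73.4 TPM in U87 aggregation libraries (log2 difference 1.42 ± 0.08, SE; limma, adjusted p = 7.52e-05). In U118 it was at 2.16, 2.93 and 3.06 TPM in control and 111, 61.4 and 66.9 TPM in aggregation libraries, a 29.3-fold higher mean (log2 difference 4.40 ± 0.28, adjusted p = 3.68e-06). In both lines all aggregation libraries were above all controls. GFPT1, the other isoform, was not called in either line (log2 difference -0.51 in U87 and -0.54 in U118). GFPT2 held 66.6% to 79.6% of the summed TPM of the pair in U87 control and 91.6% to 92.5% in U87 aggregation libraries, against 12.4% to 16.7% and 87.9% to 89.2% in U118.

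Of the other 8 enzymes of this list 5 fell in U118. UAP1, which makes UDP-N-acetylglucosamine, was at 87.4, 54.4 and 62.7 TPM in U118 control and 20.6, 9.33 and 10.3 TPM in U118 aggregation libraries (log2 difference -2.32 ± 0.32, SE; limma, adjusted p = 0.00044). UGDH, which makes UDP-glucuronic acid, was at 50.1, 42.5 and 46.2 TPM in control and 14.3, 7.82 and 8.84 TPM in aggregation libraries (-2.10 ± 0.26, adjusted p = 0.000207). The groups of both genes were wide apart. The acetyltransferase GNPNAT1 fell from 42.2 ± 6.66 to 12.2 ± 7.14 TPM (SD, n = 3 each; limma, adjusted p = 0.0025). PGM3 and UGP2 were called lower as well (adjusted p = 0.00604 and 0.00867 in limma), both calls being lost with median-ratio scaling. In U87 none of these 5 was called. The log2 difference was 0.12 for UAP1, -0.68 for UGDH, 0.04 for GNPNAT1, 0.25 for PGM3 and -0.80 for UGP2. UGP2 did not pass the test of a difference between the lines given below (limma interaction, adjusted p = 0.546).

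Of the 6 other breakdown genes 4 were tested, with 0 called in U87 and 1 lower in U118 (all genes tested, 10.8% called in U87 and 26.6% called lower in U118). That was GUSB, the lysosomal beta-glucuronidase, which fell from 83.3 ± 5.06 to 37.0 ± 3.35 TPM in U118 (SD, n = 3 each; limma, adjusted p = 0.00127), a call lost with median-ratio scaling. In U87 GUSB was at 74.2 ± 13.2 and 42.9 ± 1.90 TPM, with a log2 difference of -0.76 that fell short of the limit in size (limma, adjusted p = 0.00421). The hexosaminidase subunit gene HEXA and the cell surface protein gene CEMIP2 were not called in either line, and HEXA was at 108 ± 6.91 and 65.4 ± 3.19 TPM in U87 control and aggregation cells and at 86.2 ± 14.3 and 55.2 ± 10.1 TPM in U118 (SD, n = 3 each).

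Of the 7 other receptors 3 were tested. HMMR, which binds hyaluronan and also serves the mitotic spindle, was at 16.0, 45.0 and 22.2 TPM in U87 control and 8.34, 7.97 and 7.02 TPM in U87 aggregation libraries and was called lower (log2 difference -1.58 ± 0.34, SE; limma, adjusted p = 0.0108). Its U118 values were 34.8, 21.5 and 41.1 TPM and 17.1, 12.8 and 15.5 TPM, a fall (-1.01 ± 0.28, adjusted p = 0.0146) that was lost with median-ratio scaling (-0.52) and on leaving out control replicate 1 (-0.94), control replicate 3 (-0.82) or aggregation replicate 2 (-0.90). The lectin LAYN and the innate receptor TLR4 were not called in either line. TLR4 had a log2 difference of 0.90 in U118 (limma, adjusted p = 0.022), which passed the limit with median-ratio scaling.

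Of the 15 genes of the hyaluronan-bound matrix 3 were tested in U87 and 4 in U118. PTX3, the pentraxin that crosslinks hyaluronan carrying heavy chains, went opposite ways. It rose in U87, with 2.03, 2.67 and 2.56 TPM in control and 7.36, 7.19 and 7.46 TPM in aggregation libraries (log2 difference 1.29 ± 0.14, SE; limma, adjusted p = 0.000746). It fell in U118, with 278, 235 and 170 TPM in control and 36.0, 19.1 and 23.4 TPM in aggregation libraries, 8.69-fold on average (-3.09 ± 0.29, adjusted p = 3.63e-05). The proteoglycan VCAN fell in U118 from 45.6 ± 2.87 to 20.8 ± 5.55 TPM (limma, adjusted p = 0.00444), a call lost with median-ratio scaling and on leaving out aggregation replicate 2 (log2 difference -0.94), and was at 8.42 ± 3.55 and 8.02 ± 1.40 TPM in U87 (SD, n = 3). The link protein gene HAPLN3 was at 0.795, 1.69 and 0.399 TPM in U118 control and 9.75, 3.20 and 3.32 TPM in U118 aggregation libraries and was called higher (1.62 ± 0.39, SE; limma, adjusted p = 0.00864), a call lost without U118 control replicate 3 (adjusted p = 0.0567) and with no filter on low values (0.0542). In U118 HAPLN3 passed the filter on low values only through the aggregation libraries, which favours a call of higher, so little is read from it.

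Of the 10 partners of CD44 8 were tested, and the U87 calls were 1 higher and 0 lower, the U118 calls 1 higher and 3 lower. Over all genes tested 3.03% were called higher and 7.79% lower in U87, and 8.64% and 26.6% in U118. MMP14, a membrane protease that cuts CD44, was at 240, 214 and 202 TPM in U87 control and 608, 547 and 604 TPM in U87 aggregation libraries and rose (log2 difference 1.42 ± 0.08, SE; limma, adjusted p = 8.53e-05). In U118 it was lower in all aggregation libraries, at 430, 336 and 331 TPM against 646, 730 and 655 TPM, but was not called, with a log2 difference of -0.90 ± 0.21 (-1.02, and called, without aggregation replicate 1). SPP1 (osteopontin), a further ligand of CD44, rose in U118 from 26.8, 30.9 and 50.2 TPM to 216, 132 and 154 TPM (2.21 ± 0.29, SE; limma, adjusted p = 0.000314), whereas in U87 it was at 441 ± 143 and 387 ± 17.2 TPM, with overlapping groups. The linkers of CD44 to actin did not move together in U118. RDX fell from 47.7 ± 3.06 to 14.2 ± 1.02 TPM (limma, adjusted p = 0.000174) and EZR from 196 ± 8.14 to 90.3 ± 9.27 TPM (adjusted p = 0.00144, lost with median-ratio scaling), whereas MSN was at 458 ± 96.8 and 575 ± 28.4 TPM and was not called. In U87 MSN was at 612 ± 31.5 and 362 ± 23.9 TPM (SD), a log2 difference of -0.76 (limma, adjusted p = 0.000457). The U87 difference was -0.58 for EZR and -0.88 for RDX, and no linker reached the limit in size there. The sheddase ADAM17 fell from 34.8 ± 6.63 to 12.5 ± 3.99 TPM in U118 (adjusted p = 0.00236, lost with median-ratio scaling).

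**Figure D4:**
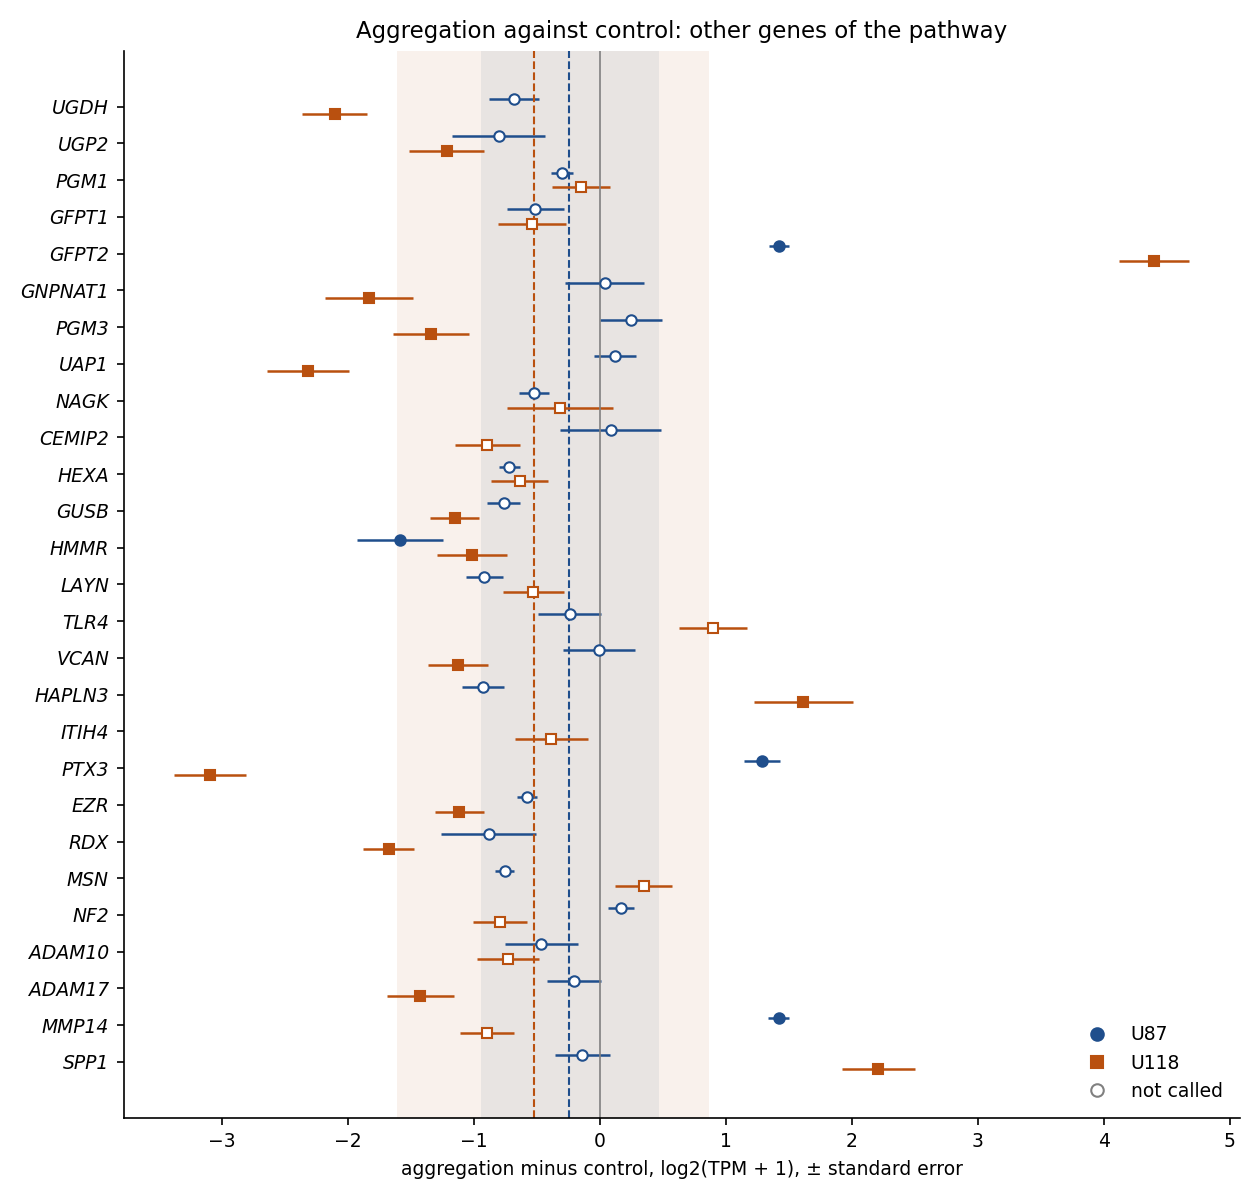
Difference between aggregation and control cells on log2(TPM + 1), with the standard error, for other pathway genes tested, ordered as UDP-sugar supply, breakdown, receptors, matrix and CD44 partners, in U87 (circles) and U118 (squares). Filled symbols are genes called at an adjusted p under 0.05 and a size of at least 1, and lines and bands are the medians and the 10th to 90th percentiles of all genes tested. GFPT2 is filled on the right in both lines (1.42 and 4.40), and PTX3 is filled on the right in U87 (1.29) and on the left in U118 (-3.09). On the left 12 genes are filled in U118 and 1 in U87, where 26.6% and 7.79% of all genes tested were called lower. With median-ratio scaling 5 of these genes were called lower in U118.

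Whether the change differed between the lines was tested for the 28 other pathway genes with enough expression, as an interaction over all 12 libraries. For 15 of the 28 it did at an adjusted p under 0.05, against 38.1% of the 16382 genes tested. The largest differences, U118 minus U87 on the log2 scale, were those of PTX3 (-4.38 ± 0.33, SE; limma, adjusted p = 5.35e-07) and GFPT2 (2.97 ± 0.29; limma, adjusted p = 4.77e-06). UAP1 (-2.44 ± 0.39), MMP14 (-2.32 ± 0.20), SPP1 (2.35 ± 0.38) and HAPLN3 (2.55 ± 0.48) followed, with limma adjusted p-values between 1.54e-06 and 0.00118. HMMR (0.57 ± 0.46, limma, adjusted p = 0.354), RDX (-0.79 ± 0.43, limma, adjusted p = 0.165), GUSB (-0.39 ± 0.21, limma, adjusted p = 0.164) and UGP2 (-0.41 ± 0.50, limma, adjusted p = 0.546) did not pass this test. Their calls in 1 line or both therefore do not show a difference between lines.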

How the data were processed

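Per the labels, mRNA libraries were made from Trizol-extracted total RNA with the VAHTS mRNA-seq V2 kit, and the authors deposited 1 table of TPM values per gene for each cell line. The submitters' processing notes name FastQC 0.11.2, Trimmomatic 0.36, HISAT2 2.0, bedtools 2.26.0 and GRCh38, without their order. The quantification tool, the annotation and the use of strand are not given in the sources used here. Of 58174 identifiers, 57392 had a symbol and 57836 were in GENCODE release 29, whose GRCh38 positions are printed. All columns were used (0 left over).

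Each line was fitted separately on log2(TPM + 1), with no replicate block, by lmFit and eBayes (trend on) of limma 3.58.1 under R 4.3.3. Genes entered with 1 TPM or more in 3 or more of 6 libraries, or of 12 for the interaction between lines. The fit was tested on simulated data first. The study names no test for the change of single genes in its mRNA-seq. The tables of the 2 lines are separate, so levels were tested only within a line. An exact two-sided permutation test of 3 libraries against 3 cannot go below p = 0.1, so none is given. Errors of TPM are SDs over 3 libraries. TPM keeps no depth, so no counting error or detection limit could be given.

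The members and the 5 lists of other pathway genes (UDP-sugar supply, breakdown, receptors, matrix, CD44 partners) were chosen with earlier results of these data known. The genes named are the 9 members, the pathway genes called in at least 1 line or, in lists with fewer than 3 calls, the most abundant, and for each called member the 3 genes of most similar profile. Some genes under this rule are not reported here. Genes that overlap a member and a few uncalled pathway genes were chosen after their values were seen. Promoters came from RefSeq (GRCh38.p14). Tables and figures were made with pandas 2.3.3 and matplotlib 3.10.9 in Python 3.11.15. Alternatives were a pseudocount of 0.1, no filter, median-ratio scaling, the replicate number as a block, TPM rescaled without mitochondrially encoded genes, and leaving out each library in turn.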

Additional observations from a re-analysis of the deposited data

Results flagged for a closer look

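The change from control to aggregation cells differed between the lines for 15 of the 28 other genes of the pathway in the interaction test (limma, adjusted p under 0.05 over 16382 genes, 3 libraries in each of 4 groups). Over all 16382 genes 38.1% passed the same test. Values are the log2 change in U118 minus that in U87, and no explanation was tested. In UDP-sugar supply the difference was 2.97 for GFPT2 (adjusted p = 4.77e-06), -2.44 for UAP1 (0.000341), -1.42 for UGDH (0.00443), -1.59 for PGM3 (0.00856) and -1.87 for GNPNAT1 (0.0115). In the matrix it was -4.38 for PTX3 (5.35e-07), 2.55 for HAPLN3 (0.00118) and -1.12 for VCAN (0.0345), and for the receptor TLR4 it was 1.14 (0.0359). Among the partners of CD44 it was -2.32 for MMP14 (1.54e-06), 2.35 for SPP1 (0.000402), 1.10 for MSN (0.00147), -0.96 for NF2 (0.00365), -1.22 for ADAM17 (0.0161) and -0.54 for EZR (0.0294). All limits said above of the U118 aggregation libraries apply to each of these values.

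For 4 of the members every aggregation library lay on one side of the mean of its controls in U87 and on the other side in U118. This asks less than groups that do not overlap, and the HYAL3 groups overlapped in both lines. The share of all genes with such a pattern was not computed, so nothing is read from the count. The log2 change in U118 minus that in U87 was -2.31 for HAS3, -2.40 for TNFAIP6, -1.28 for CD44 and 0.41 for HYAL3, and these differences were not tested.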

How the results depend on the processing

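Over all alternatives run, 159 values of members were recomputed, of which 141 stayed within 1 SD between replicates, 18 moved further and 0 changed sign. Taking out the filter or adding the replicate block cannot change a log2 difference here, so values from these settings were bound to stay. The same holds for HAS1 in U87 on leaving out a control library listed at 0. The count of 141 includes all of these and overstates how steady the values were. As a description, HAS2, HAS3 and TNFAIP6 in U118 stayed past the limits in all 11 alternatives, and HAS1 in both lines in the 8 it had, since without an aggregation library it no longer passed the filter on low values. With its controls at or near 0, the sign of HAS1 could not turn in any of them. The call of HYAL2 in U87 was lost with median-ratio scaling, without mitochondrially encoded genes, and without U87 control replicate 3 or aggregation replicate 2. CEMIP in U118 passed the limits in 6 of 11 alternatives, TNFAIP6 in U87 in 4 of 11 and CD44 in U118 in 2 of 11. Since the members were chosen with this contrast in view, nothing is read from how often they passed. Of 352 values of other pathway genes 320 stayed on the same side, 17 lost a call, 4 gained one and 11 changed sign. Leaving out 1 library brought UGP2 in U87 past the limits (-1.18, without control replicate 1) and HAPLN3 in U87 (-1.05, without control replicate 3). GUSB, VCAN, EZR and HMMR in U118 also lost their calls without mitochondrially encoded genes (log2 differences -0.96, -0.94, -0.92 and -0.83).

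The count of other pathway genes called higher in U87 stayed at 3 throughout, and that of genes called lower went from 1 to 2 with a pseudocount of 0.1 and ranged from 1 to 3 with 1 library left out. In U118 the higher count went from 3 to 5 without mitochondrially encoded genes (2 to 4 with 1 library left out), and the lower count from 12 to 5 with median-ratio scaling (10 to 14). The U87 median relative to all genes was -0.05, against -0.02599 with a pseudocount of 0.1, -0.02065 with no filter, -0.02256 with median-ratio scaling, and -0.17 to 0.03814 with 1 library left out, turning positive without U87 control replicate 2. The U118 median was -0.32, against -0.24 without mitochondrially encoded genes and -0.45 to -0.26 with 1 library left out. The count of changes that differed between the lines was 12 to 16 with 1 library left out. Signs turned only for uncalled U87 differences: GNPNAT1 without control replicate 1 (-0.26) or aggregation replicate 3 (-0.09, range with 1 library left out -0.26 to 0.3423), UAP1 without control replicate 1 (-0.04729 to 0.2181), VCAN with median-ratio scaling (0.24), without mitochondrially encoded genes (0.12), without control replicate 2 (0.27) or aggregation replicate 3 (0.12, range -0.2717 to 0.27), ADAM17 with median-ratio scaling (0.0392) or without control replicate 2 (-0.3244 to 0.02338), and SPP1 with median-ratio scaling (0.14) or without control replicate 2 (-0.3764 to 0.10). The causes were not tested.

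Replicate numbers were not taken to pair the libraries, since not every same-numbered pair passed a correlation of 0.1: same-numbered deviations correlated at 0.01, -0.07 and -0.04 in U87 and 0.14, 0.05 and 0.10 in U118. With the replicate block the counts were 3 higher and 1 lower in U87 and 3 and 12 in U118, 14 in place of 15 changes differed between the lines, and CEMIP in U118 came past the limits (1.74, SE 0.36 in place of 0.66). In U118 every control library correlated best with the aggregation library of its own number, and in U87 none did.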
